A study of Mus musculus with 12 samples.

Results

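The actin, tropomyosin, nebulin, and leiomodin genes that build the thin filament of muscle were examined in RNA-seq counts of C2C12GFP cells, a mouse myoblast line that expresses green fluorescent protein and fuses into myotubes in low-serum medium. The members were the 10 listed genes *Acta1*, *Acta2*, *Actc1*, *Tpm1*, *Tpm2*, *Tpm3*, *Tpm4*, *Neb*, *Lmod2*, and *Lmod3*, taken by name from a table of 55536 genes, and all 10 of them were among the 14499 genes that passed the filter on low counts. Cells were differentiated on plates in 4 conditions, labelled Control, Collagen I (a fibrillar collagen), Fibronectin (a cell adhesion glycoprotein), and Geltrex (a basement membrane extract rich in laminin), with 3 samples in each and 12 in all. All groups came from the same line, and the labels do not say whether the 3 samples of a group were separate cultures, so the p-values measure the spread between these samples, which may be technical. The day of differentiation at which RNA was taken is not given in the sources used here.

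Thin filaments are polymers of actin that slide along myosin when muscle contracts. Tropomyosin dimers lie along the filament and, with the troponin complex, make contraction depend on calcium, while nebulin runs along the filament and leiomodins help to set its length at the pointed end. Myoblasts hold mainly cytoplasmic actins and cytoskeletal tropomyosins, and muscle isoforms are added as cells differentiate.

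Total counts per sample lay between 22520404 and 27351766. Levels are given as CPM, the count of a gene scaled to the size of its library after TMM normalization, or as CPM per kb of exon where genes are compared with each other. A gene was called when its adjusted p in edgeR's quasi-likelihood test was at most 0.05 over all genes tested, with no minimum fold change. The 3 Geltrex samples resembled each other most closely (χ2 per degree of freedom over genes between 2.18 and 4.54), whereas pairs within the other groups reached 7.73 to 65.1, and the highest values involved the third Collagen I sample. Every pair differed beyond sampling noise, and each sample was counted once. Myotube markers were expressed in all 4 groups, and the summed level of the 8 markers was at least 1990 CPM in every sample. In the Fibronectin samples this sum lay between 1990 and 2186 CPM and in the Geltrex samples between 2719 and 3100 CPM, against 5633 to 6150 CPM in the Control and 5686 to 6442 CPM on Collagen I. A few genes dominate the sum. On Fibronectin the highest means were 905 CPM for *Des*, 554 for *Myh3*, and 408 for *Ttn*, and the lowest were 6.64 for *Ckm* and 4.48 for *Actn2*.

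Transcripts of the 10 genes took up 0.677% to 0.723% of all counts in the Control and Collagen I samples, and 0.405% to 0.465% in the Fibronectin and Geltrex samples, with no overlap. On Fibronectin, 8 of the 10 genes were lower than in the Control, *Tpm4* was higher, and *Tpm3* was not called. On Geltrex, 7 were lower, *Tpm4* was again higher, and *Acta2* and *Tpm3* were not called. Over all genes tested, 17.1% were called higher and 14.7% lower on Fibronectin, and 16.4% were called higher and 16.6% lower on Geltrex. The median log2 fold change of the 10 genes was -1.43 on Fibronectin and -1.09 on Geltrex, beside medians of -0.02 and -0.01 over all genes tested. Both comparisons use the same 3 Control samples. In bulk RNA, fewer myotubes and less RNA of these genes per myotube cannot be told apart. The myotube markers moved in the same direction, since 8 of 8 were called lower in both comparisons. Of 7 markers of undifferentiated or cycling cells, the 4 cell cycle genes *Mki67*, *Top2a*, *Cdk1*, and *Ccnb1* were called higher in both. The other 3, *Pax7*, *Myf5*, and *Id3*, were called in neither. The part of these shifts in the results for thin filament genes was not tested.

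**Figure D1:**
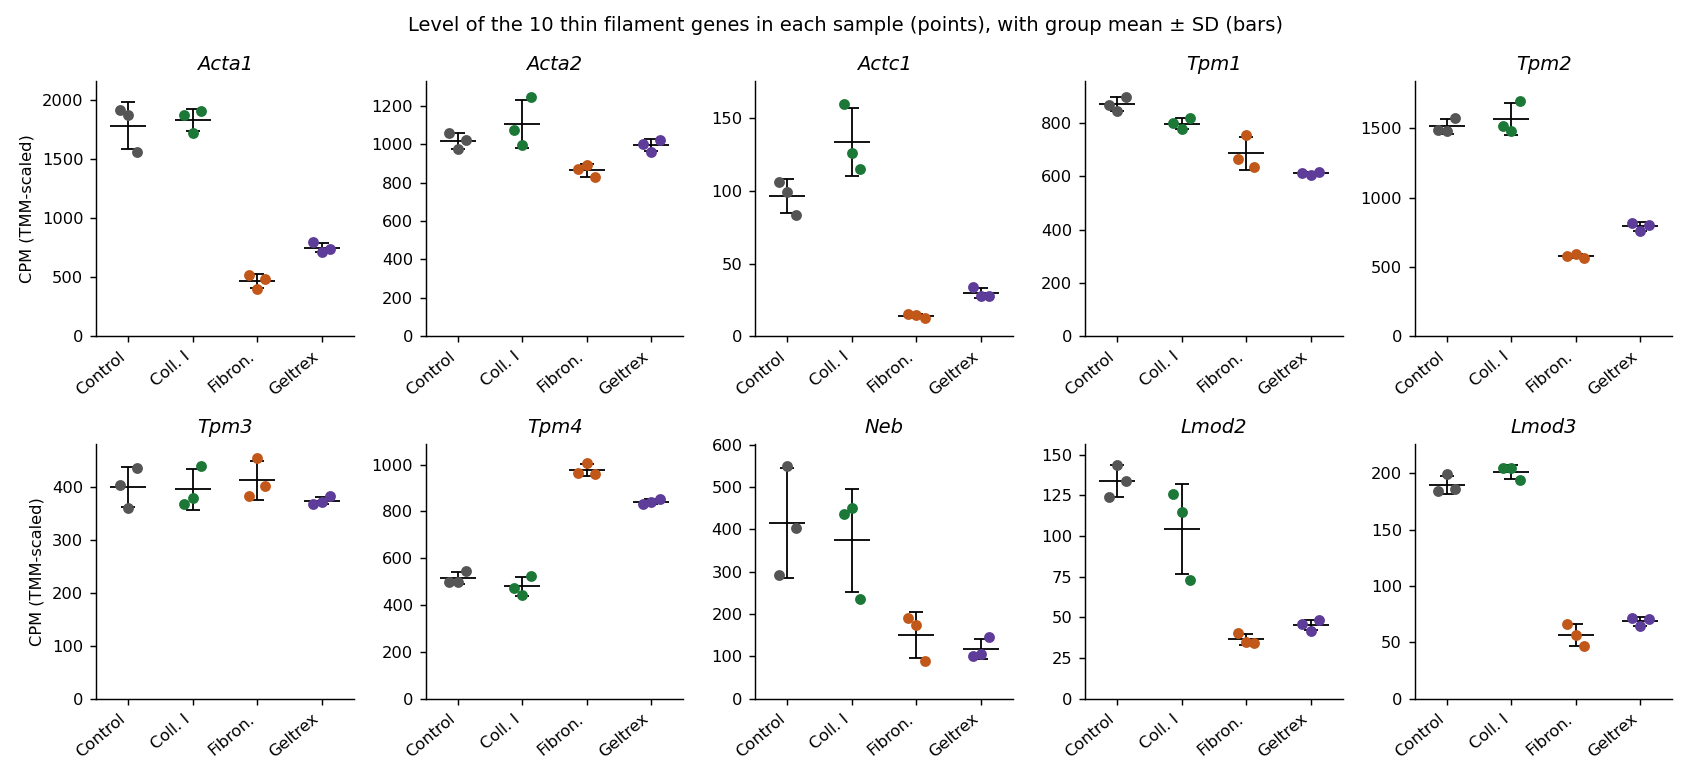
Level of each gene in CPM (y axes from 0, TMM-scaled) in the 3 samples of each group (points), with the group mean and SD as black bars. *Acta1*, *Actc1*, *Tpm2*, *Lmod2*, and *Lmod3* sit far lower on Fibronectin and Geltrex than in the Control and on Collagen I, *Tpm4* sits higher, and *Tpm3* and *Acta2* lie close to their Control level.

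The sarcomeric actins are shown first, with the DNA in front of *Acta1* and *Actc1*. Any link between motifs in this DNA and the levels of the genes was not tested. *Acta1* encodes skeletal α-actin, the main actin of adult skeletal muscle (ENSMUSG00000031972, chromosome 8, 123891769 to 123894751, minus strand, GRCm38). *Actc1* encodes cardiac α-actin, which developing and regenerating skeletal muscle also makes (ENSMUSG00000068614, chromosome 2, 114047282 to 114053548, minus strand). Of the 10 genes, 8 had an entry in the RefSeq promoter table for GRCm38.p6, which covers 250 bases before to 50 bases after each start site. The CArG box, the site bound by serum response factor (SRF), was searched on both strands as CC, then 6 bases that are each A or T, then GG. It was found once in the *Acta1* window, at -73 from the start site, and once in the *Actc1* window, at -47, and in none of the other members' windows. Of all 32851 windows, 535 (1.63%) held an exact CArG box. The capitals in the sequences mark it, and bases inside an exon of GENCODE M21 are left out.

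*Acta1* promoter, chr8:123894776-123895025, minus strand, GRCm38.p6: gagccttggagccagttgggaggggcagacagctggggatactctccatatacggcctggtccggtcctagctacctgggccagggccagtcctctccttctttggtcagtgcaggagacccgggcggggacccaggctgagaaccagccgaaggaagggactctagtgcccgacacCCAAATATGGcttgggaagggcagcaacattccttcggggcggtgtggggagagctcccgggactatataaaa
*Actc1* promoter, chr2:114052888-114053125, minus strand, GRCm38.p6: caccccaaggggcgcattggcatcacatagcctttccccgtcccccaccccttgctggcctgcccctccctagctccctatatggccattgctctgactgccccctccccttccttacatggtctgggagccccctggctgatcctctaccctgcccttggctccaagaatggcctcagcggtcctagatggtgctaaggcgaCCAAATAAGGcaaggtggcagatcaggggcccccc

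An exact match in these letters is a description and not evidence of binding, and its absence says only that these letters are not in the window. Windows that come within 1 base of the CArG pattern are common (19.9% of all windows), and the *Acta2* window holds 2 of them and no exact match. The E-box, CANNTG, bound by myogenic factors among others, occurred in 72.3% of all windows. The *Tpm2* window held no exact or 1-base-off CArG box, but 106 of its 250 bases before the RefSeq start lie inside an annotated exon. In the *Tpm1* window 193 of these bases do, and in the *Tpm4* window 41, so these windows are in part not sequence in front of the gene. The *Acta2* sequence is not shown, because 217 of its 250 bases before the RefSeq start lie inside an annotated exon.

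*Acta1* was the most abundant of the 10 genes per kb of exon in the Control, at 1162 ± 127 CPM per kb (SD, n = 3). Its level in the Control samples was 1918, 1875, and 1560 CPM, and on Collagen I it was 1870, 1723, and 1905 CPM. On Fibronectin the 3 samples had 519, 402, and 485 CPM, and on Geltrex they had 795, 716, and 739 CPM. The Control and Collagen I ranges overlapped, while the Fibronectin samples lay below the Geltrex samples and both lay below all others. Relative to the Control, *Acta1* was 3.81-fold lower on Fibronectin (log2 fold change -1.93, SE 0.11, adjusted p = 8.93e-09) and 2.38-fold lower on Geltrex (-1.25, SE 0.11, adjusted p = 2.71e-07). The difference between Fibronectin and Geltrex was itself called (-0.68, adjusted p = 0.00026).

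*Actc1* showed the largest fold differences of the 10 genes on Fibronectin. The Control samples had 106, 99.5, and 83.6 CPM, the Fibronectin samples 15.2, 14.5, and 12.4 CPM, and the Geltrex samples 33.7, 27.7, and 27.8 CPM. These groups did not overlap. The gene was 6.87-fold lower on Fibronectin than in the Control (-2.78, SE 0.14, adjusted p = 2.28e-09), 3.24-fold lower on Geltrex (-1.70, SE 0.13, adjusted p = 1.06e-07), and 2.12-fold lower on Fibronectin than on Geltrex (adjusted p = 4.17e-05). On Collagen I the samples had 160, 126, and 115 CPM, all above the 3 Control samples. This Collagen I difference was not called (0.47, 95% confidence interval 0.21 to 0.74, adjusted p = 0.0736), although DESeq2 called it (adjusted p = 0.0226), as did the fits with the replicate block (adjusted p = 0.0103), with no filter on low counts (adjusted p = 0.00037), and without the third Collagen I sample (adjusted p = 0.0409).

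*Acta2* encodes smooth muscle α-actin, which proliferating and early differentiating myoblasts also express (ENSMUSG00000035783, chromosome 19, 34241090 to 34255590, minus strand). Its mean level was 1020 ± 42.6 CPM in the Control and 1106 ± 127 CPM on Collagen I, and it was 864 ± 33.5 CPM for Fibronectin and 995 ± 31.2 CPM for Geltrex (SD, n = 3 each). The Fibronectin samples, at 873, 893, and 828 CPM, lay below the lowest Control sample at 975 CPM. That difference was small (-0.24, SE 0.09, adjusted p = 0.0459) and was not called in 15 of 21 alternatives, with adjusted p from 0.0534 to 0.137. On Geltrex the difference from the Control was -0.04 with a 95% confidence interval of -0.22 to 0.15 (adjusted p = 0.793). Of the genes linked to smooth muscle, *Myocd*, the cofactor of SRF in that tissue, had at most 2 counts in any sample. *Myh11*, smooth muscle myosin, had at most 6, *Cnn1*, basic calponin, at most 9, and *Tagln*, transgelin, at most 28. *Actg2*, a smooth muscle γ-actin, was above these, between 3.38 and 16.3 CPM. *Lmod1*, the smooth muscle leiomodin, lay between 1.08 and 5.10 CPM. Others had higher levels in every sample, with *Cald1*, caldesmon, between 706 and 1430 CPM and *Cnn2* between 138 and 255 CPM. *Smtn*, smoothelin, lay between 27.0 and 51.8 CPM, and *Myl9* between 17.0 and 46.6 CPM. Their part in the level of *Acta2* was not tested.

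The balance among actins differed between the groups. Per kb of exon, *Acta1* stood at 19.5 ± 0.436 times the level of *Actc1* in the Control, 14.7 ± 2.58 times on Collagen I, 35.4 ± 6.06 times on Fibronectin, and 26.7 ± 1.66 times on Geltrex (SD, n = 3). The log2 ratio differed between the 4 groups (exact permutation test over all 369600 assignments of samples to groups, p = 6.49e-05, the smallest that this test can give, adjusted p = 0.000152 over 7 ratios). The ratio of *Acta2* to the sum of *Acta1* and *Actc1* was 0.383 ± 0.0478 in the Control and 0.394 ± 0.0337 on Collagen I, and it was 1.27 ± 0.201 on Fibronectin and 0.896 ± 0.0443 on Geltrex (exact permutation p = 0.00039, adjusted p = 0.000682). The lowest Fibronectin or Geltrex sample, at 0.847, lay above the highest of the other 6, at 0.437.

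Of the 3 other actin genes, 2 were called higher on Fibronectin and 3 on Geltrex, beside 17.1% and 16.4% of all genes tested. *Actg1*, a cytoplasmic actin of nearly every cell, was 0.76 higher on the log2 scale on Fibronectin (adjusted p = 2.35e-05) and 0.94 higher on Geltrex (adjusted p = 1.98e-06), and *Actg2*, a smooth muscle γ-actin at a low level, was 1.25 and 1.43 higher (adjusted p = 0.000881 and 0.000216). *Actb*, the other cytoplasmic actin, was higher on Geltrex (0.70, adjusted p = 0.000196) and was not called on Fibronectin (0.29, adjusted p = 0.0578). Within the pool of these 6 actin genes per kb of exon, *Acta1* made up 43.7% ± 3.12 in the Control and 43.8% ± 2.61 on Collagen I, but 14.9% ± 1.84 on Fibronectin and 18.6% ± 0.566 on Geltrex. *Actb* made up 24.8% ± 1.87 in the Control, 39.4% ± 1.53 with Fibronectin, and 40.6% ± 0.553 with Geltrex. The summed level of the 6 actins was 2655 ± 144 CPM per kb in the Control, 2737 ± 283 on Collagen I, 2045 ± 28.8 on Fibronectin, and 2627 ± 62.8 on Geltrex, and the Control and Geltrex samples overlapped in this sum while their make-up differed. Without division by exon length, *Acta1* made up 32.5% of the pool in the Control, 9.55% with Fibronectin, and 12.1% with Geltrex.

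**Figure D2:**
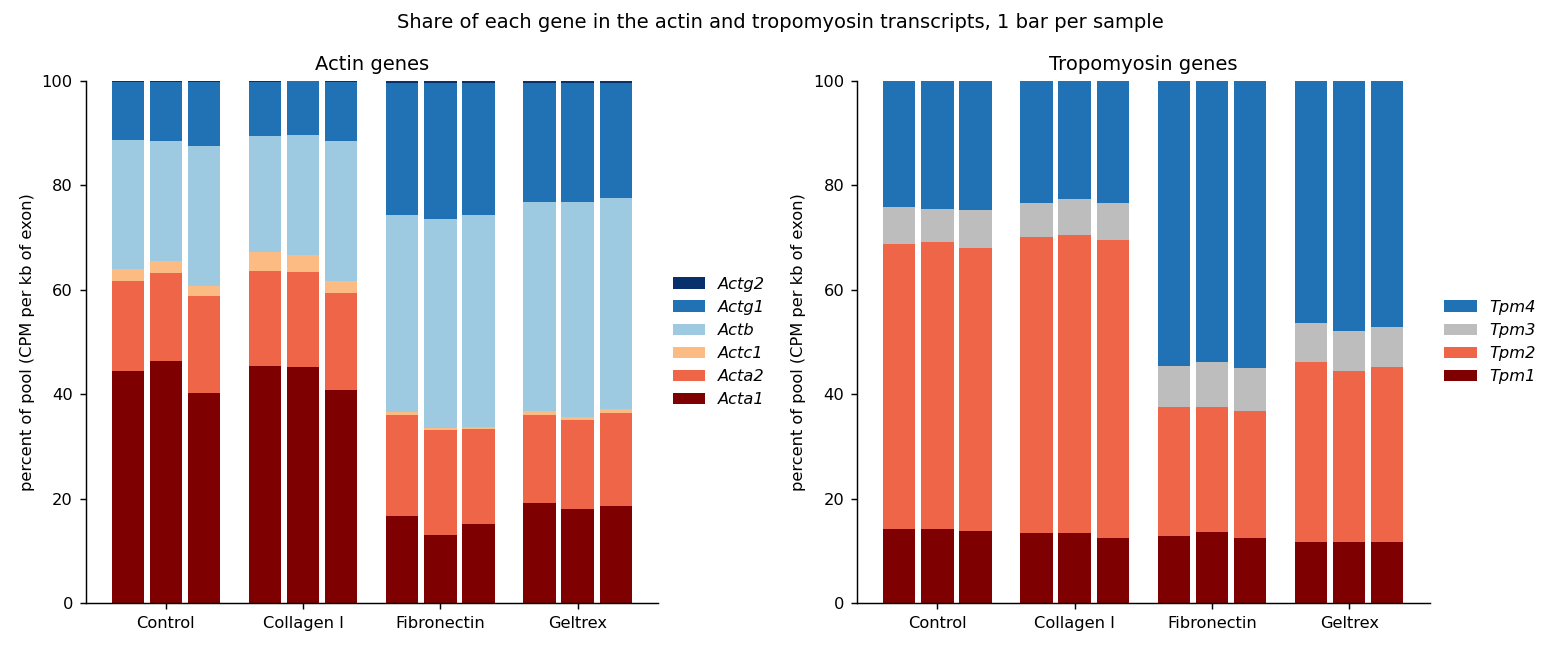
Share of each gene (percent, y axis, from CPM per kb of exon) in the actin pool (left) and the tropomyosin pool (right), with 1 stacked bar for each of the 12 samples. The mean share of *Acta1* is 43.7% in the Control and 14.9% on Fibronectin, and that of *Tpm4* is 24.5% and 54.4%.

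Of the 4 tropomyosin genes, *Tpm2* and *Tpm1* were lower and *Tpm4* was higher on both Fibronectin and Geltrex than in the Control. *Tpm1* and *Tpm2* give the main α- and β-tropomyosins of striated muscle, *Tpm3* gives the slow-muscle α-tropomyosin and several cytoskeletal forms, and *Tpm4* is mainly cytoskeletal. Counts per gene add all isoforms of a gene, so muscle and cytoskeletal forms of *Tpm1*, *Tpm2*, and *Tpm3* could not be separated.

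*Tpm2* (ENSMUSG00000028464, chromosome 4, 43514711 to 43523765, minus strand) had 1487, 1478, and 1573 CPM in the Control, and 1513, 1482, and 1696 CPM on Collagen I. Its values were 579, 590, and 560 CPM for Fibronectin, and 818, 755, and 800 CPM for Geltrex. The last 2 groups were separate from each other and lay below all other samples. *Tpm2* was 2.63-fold lower on Fibronectin than in the Control (-1.39, SE 0.08, adjusted p = 1.03e-08), 1.91-fold lower on Geltrex (-0.94, SE 0.08, adjusted p = 2.50e-07), and 1.37-fold lower on Fibronectin than on Geltrex (-0.46, adjusted p = 0.000629). The last call was lost when the 3 Geltrex samples were summed into 1 (adjusted p = 0.0556).

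*Tpm4* (ENSMUSG00000031799, chromosome 8, 72134975 to 72153142, plus strand) was the only one of the 10 genes called higher on Fibronectin and on Geltrex. The Control samples had 499, 500, and 544 CPM and the Collagen I samples 471, 444, and 525 CPM. On Fibronectin the values were 963, 1008, and 958 CPM, and on Geltrex they were 831, 840, and 852 CPM. Every Fibronectin sample lay above every Geltrex sample, and these above all the others. The gene was 1.90-fold higher on Fibronectin than in the Control (0.93, SE 0.08, adjusted p = 4.13e-07) and 1.64-fold higher on Geltrex (0.71, SE 0.08, adjusted p = 4.42e-06). The difference between Fibronectin and Geltrex, 0.22, was not called (adjusted p = 0.0649), and it was called by DESeq2, with only the 2 groups in the fit, and without the third Collagen I sample, with adjusted p from 0.0232 to 0.0311.

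*Tpm1* (ENSMUSG00000032366, chromosome 9, 67022590 to 67049406, minus strand) had a mean of 870 ± 25.8 CPM in the Control and 798 ± 19.4 CPM on Collagen I, beside 685 ± 60.8 CPM for Fibronectin and 612 ± 5.09 CPM for Geltrex (SD, n = 3). Relative to the Control it was 1.27-fold lower on Fibronectin (-0.34, SE 0.08, adjusted p = 0.00313) and 1.42-fold lower on Geltrex (-0.51, SE 0.08, adjusted p = 9.98e-05). *Tpm3* (ENSMUSG00000027940, chromosome 3, 90072649 to 90100902, plus strand) did not pass the test in any of the 6 comparisons, and its test over the 4 groups gave an adjusted p of 0.567, while 53.3% of all genes were called in that test. Its mean lay between 374 CPM on Geltrex and 412 CPM on Fibronectin. The 95% confidence interval of its log2 difference from the Control was -0.15 to 0.24 on Fibronectin and -0.30 to 0.10 on Geltrex. Of the 150-base windows in *Tpm3* transcripts, 10.2% also occur in *Tpm3-rs7*, and 5.11% of those of *Tpm4* occur in *Gm7809*, so some reads of these genes could be assigned elsewhere. The other 8 genes had no such shared window.

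Per kb of exon, *Tpm4* stood at 0.357 ± 0.00598 times the sum of *Tpm1* and *Tpm2* in the Control and at 0.330 ± 0.00819 times on Collagen I. The same ratio was 1.46 ± 0.0325 on Fibronectin and 1.04 ± 0.0378 on Geltrex, with no overlap between any of the 4 groups (exact permutation p = 6.49e-05, adjusted p = 0.000152 over 7 ratios). *Tpm2* stood at 3.88 ± 0.0457 times *Tpm1* in the Control, 4.37 ± 0.227 times on Collagen I, 1.88 ± 0.118 times on Fibronectin, and 2.88 ± 0.102 times on Geltrex (exact permutation p = 6.49e-05, adjusted p = 0.000152). *Tpm3* relative to *Tpm1* ranged from 0.489 ± 0.0326 in the Control to 0.651 ± 0.0101 on Geltrex (exact permutation p = 0.00273, adjusted p = 0.00382). Within the tropomyosin pool, *Tpm4* accounted for 24.5% ± 0.283 in the Control and 23.1% ± 0.441 on Collagen I, but 54.4% ± 0.599 on Fibronectin and 47.2% ± 0.775 on Geltrex. Since the exon length used here spans all isoforms and is long for *Tpm1* and *Tpm3*, their levels per kb are understated. Without division by length, *Tpm4* made up 15.6% of tropomyosin counts in the Control, 36.9% with Fibronectin, and 32.1% with Geltrex.

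**Figure D3:**
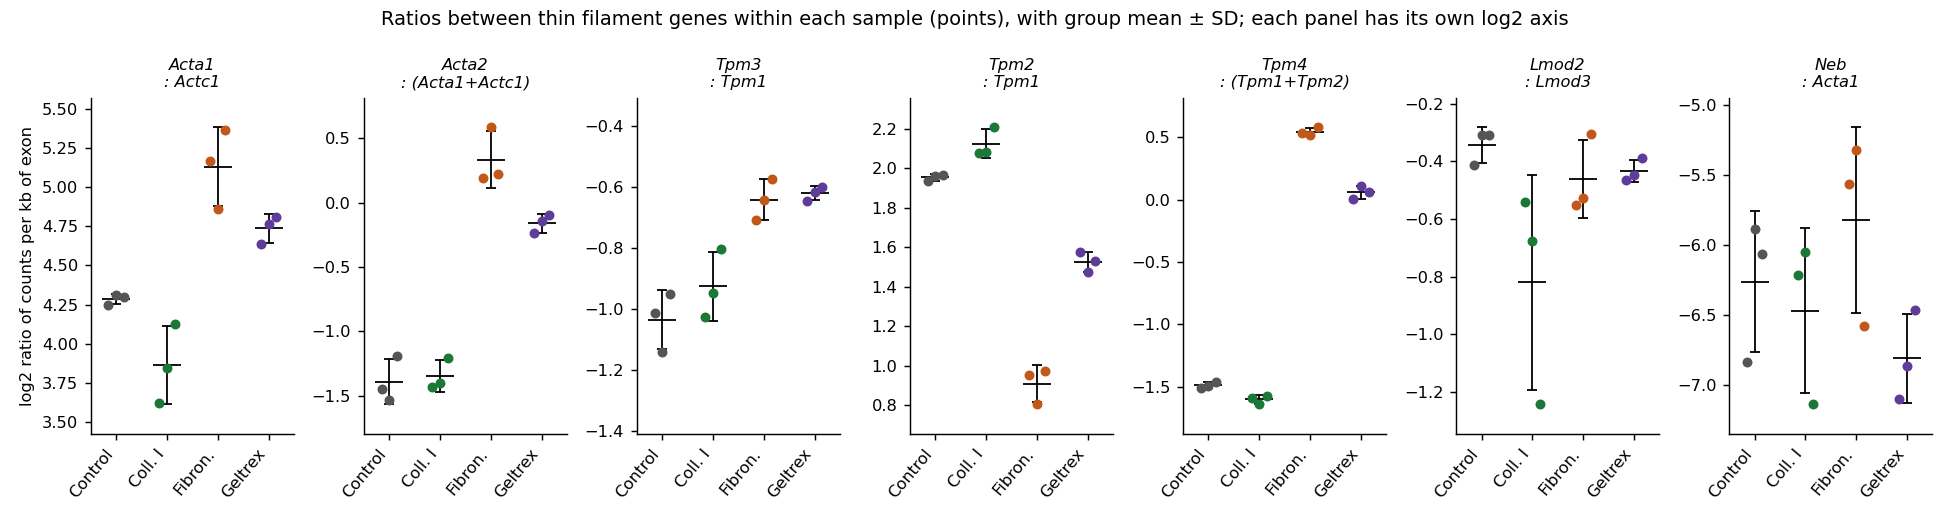
Ratio of the named genes within each sample, as log2 of counts per kb of exon (y axes, a separate range for each panel), with points for samples and bars for the group mean and SD. The ratio of *Tpm4* to *Tpm1* and *Tpm2* separates all 4 groups, whereas the ratio of *Neb* to *Acta1* overlaps between groups.

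The leiomodins nucleate actin and elongate the filament at its pointed end. *Lmod3* (ENSMUSG00000044086, chromosome 6, 97238534 to 97252759, minus strand), the form of skeletal muscle, had 185, 199, and 186 CPM in the Control and 205, 205, and 194 CPM on Collagen I. It had 66.0, 56.7, and 47.1 CPM on Fibronectin and 71.3, 64.1, and 70.6 CPM on Geltrex. The Fibronectin and Geltrex samples overlapped each other, and all 6 lay below the rest. *Lmod3* was 3.35-fold lower on Fibronectin than in the Control (-1.75, SE 0.10, adjusted p = 1.28e-08) and 2.77-fold lower on Geltrex (-1.47, SE 0.10, adjusted p = 3.32e-08).

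*Lmod2* (ENSMUSG00000029683, chromosome 6, 24597762 to 24605414, plus strand), the form best known from heart, had 124, 144, and 134 CPM in the Control. On Collagen I it had 126, 115, and 73.1 CPM, so the last 2 of these samples were lower than every Control sample. The Fibronectin samples had 40.1, 35.1, and 34.0 CPM, and the Geltrex samples had 46.1, 41.9, and 48.1 CPM. *Lmod2* was 3.67-fold lower on Fibronectin than in the Control (-1.88, SE 0.15, adjusted p = 2.32e-07) and 2.95-fold lower on Geltrex (-1.56, SE 0.15, adjusted p = 1.02e-06). The ratio of *Lmod2* to *Lmod3* lay between 0.579 ± 0.139 on Collagen I and 0.789 ± 0.0332 in the Control (exact permutation p = 0.0179, adjusted p = 0.0209). That call was lost when any 1 of 7 samples was left out, with adjusted p from 0.0564 to 0.098, the highest without the third Collagen I sample. Heart markers were near 0 beside *Lmod2* and *Actc1*. The 5 heart genes summed to at most 1.27 CPM in the Control, 1.77 on Collagen I, 1.90 on Fibronectin, and 4.28 on Geltrex, *Myl7* had no count, and *Nppb*, a natriuretic peptide with a mean of 3.41 CPM on Geltrex, was called higher than in the Control on both Fibronectin and Geltrex. The part of these markers in the results was not tested.

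*Neb* encodes nebulin, a giant protein that spans most of the thin filament (ENSMUSG00000026950, chromosome 2, 52136647 to 52378474, minus strand, 26582 bases of exon). It was the most variable of the 10 genes within groups, with a coefficient of variation of 31.3% in the Control, 32.3% on Collagen I, 36.3% on Fibronectin, and 20.4% on Geltrex. The Control samples had 291, 550, and 404 CPM, and the Collagen I samples had 436, 451, and 235 CPM. The Fibronectin samples had 190, 174, and 88.0 CPM, and the Geltrex samples had 101, 107, and 145 CPM. All Fibronectin and Geltrex samples lay below all Control and Collagen I samples. *Neb* was 2.76-fold lower on Fibronectin than in the Control (-1.46, SE 0.29, adjusted p = 0.00121) and 3.54-fold lower on Geltrex (-1.82, SE 0.29, adjusted p = 0.000161). The difference between Fibronectin and Geltrex was not called (0.36, 95% confidence interval -0.24 to 0.96, adjusted p = 0.402), although it was called with no filter on low counts (adjusted p = 0.00303).

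The deviations of *Neb* within groups had the same sign as those of long genes. Over 1228 genes with at least 10000 bases of exon, the median deviation from the group mean was -0.13 (log2) in the first Control sample, where *Neb* deviated by -0.46, and -0.13 in the third Collagen I sample, where *Neb* deviated by -0.61. In the third Fibronectin sample the values were -0.11 and -0.70. The sign was the same in all 12 samples, but this was not particular to long genes. *Lmod2*, with 1976 bases of exon, deviated by -0.11, -0.48, and -0.09 in the samples just named. *Lmod3*, with 2215 bases, deviated by -0.04, -0.05, and -0.25 there. *Ttn*, another giant muscle gene, deviated by 0.10 in the first Control sample and by 0.04 in the third Fibronectin sample. Its sign was also opposite to that of the long genes in other samples, such as the second Control sample (-0.04 against 0.10). The part of gene length in the spread of *Neb* was not tested. The ratio of *Neb* to *Acta1* did not pass the test between the 4 groups (exact permutation p = 0.234, adjusted p = 0.234), and its means ranged from 0.00909 ± 0.00204 on Geltrex to 0.0189 ± 0.00751 on Fibronectin.

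The order of the 10 genes by level per kb of exon differed between the groups. In the Control, *Acta1* led with 1162 CPM per kb, followed by *Tpm2* at 520 ± 18.1, *Acta2* at 464 ± 19.4, *Tpm4* at 233 ± 11.6, and *Tpm1* at 134 ± 3.99. *Lmod3* at 85.8, *Lmod2* at 67.7, *Tpm3* at 65.7, and *Actc1* at 59.6 followed, and the samples of the last 3 of these overlapped, and *Neb* was lowest at 15.6. The exon length used understates *Tpm1* and *Tpm3*, so their places in this order depend on it. In CPM the Control mean of *Tpm3* was 400, above *Lmod3* at 190 and *Lmod2* at 134. That of *Tpm1* was 870, above *Tpm4* at 514. On Fibronectin, *Tpm4* led with 443 ± 12.5, ahead of *Acta2* at 394 ± 15.2, *Acta1* at 305 ± 39.3, and *Tpm2* at 198 ± 5.21. On Geltrex, *Acta1* at 488 ± 26.3 and *Acta2* at 453 ± 14.2 lay next to each other without overlap between their samples, and were followed by *Tpm4* at 382 ± 4.65 and *Tpm2* at 272 ± 11.1.

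On Collagen I, none of the 10 genes was called against the Control in edgeR's test, where 0.200% of all genes were called higher and 0.917% lower. At an unadjusted p under 0.05 there were 2, *Actc1* and *Lmod2*, and DESeq2 called 1, *Actc1*. The *Lmod2* difference was -0.36 (95% confidence interval -0.66 to -0.05, adjusted p = 0.264), and it was called with no filter on low counts (adjusted p = 0.0227). For *Acta1* the interval was -0.18 to 0.26, for *Tpm2* it was -0.12 to 0.21, for *Tpm4* it was -0.26 to 0.07, and for *Lmod3* it was -0.13 to 0.29. The interval of *Neb*, -0.75 to 0.44, was the widest.

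The remaining comparisons set Collagen I against the other coatings. Relative to Fibronectin, 8 of the 10 genes were higher on Collagen I and *Tpm4* was lower, in a comparison where 22.1% of all genes were called higher and 22.9% lower. *Actc1* was 9.53-fold higher (3.25, SE 0.14, adjusted p = 5.94e-10) and *Acta1* 3.91-fold higher (1.97, SE 0.11, adjusted p = 3.69e-09). *Tpm1* was 0.22 higher (adjusted p = 0.0294), a call lost in 9 of 21 alternatives. Relative to Geltrex, 7 genes were higher on Collagen I and *Tpm4* was lower, beside 18.2% of all genes called higher and 19.0% lower. *Actc1* was higher by 2.17 on the log2 scale (SE 0.13, adjusted p = 9.20e-09), and *Acta2* was not called (0.15, 95% confidence interval -0.03 to 0.34, adjusted p = 0.179). The *Tpm1* difference from Geltrex, 0.38 (adjusted p = 0.00113), was not called with the 3 Geltrex samples summed into 1 (adjusted p = 0.0811).

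Between Fibronectin and Geltrex, *Acta1*, *Actc1*, and *Tpm2* were lower on Fibronectin and no gene of the 10 was higher, in a comparison where 10.3% of all genes were called higher on Fibronectin and 9.06% lower. The count of 3 depended on the samples and genes in the fit. It was 7 without the third Collagen I sample, where *Acta2* (adjusted p = 0.0387), *Tpm4* (0.0311), *Lmod2* (0.0158), and *Lmod3* (0.0487) were called as well. It was 6 with only the 2 groups compared, where *Acta2* (adjusted p = 0.0323), *Tpm4* (0.0249), and *Lmod2* (0.0192) were added, and 6 with no filter on low counts, where *Neb*, *Lmod2* (adjusted p = 0.0229), and *Lmod3* (0.0494) were added.

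**Figure D4:**
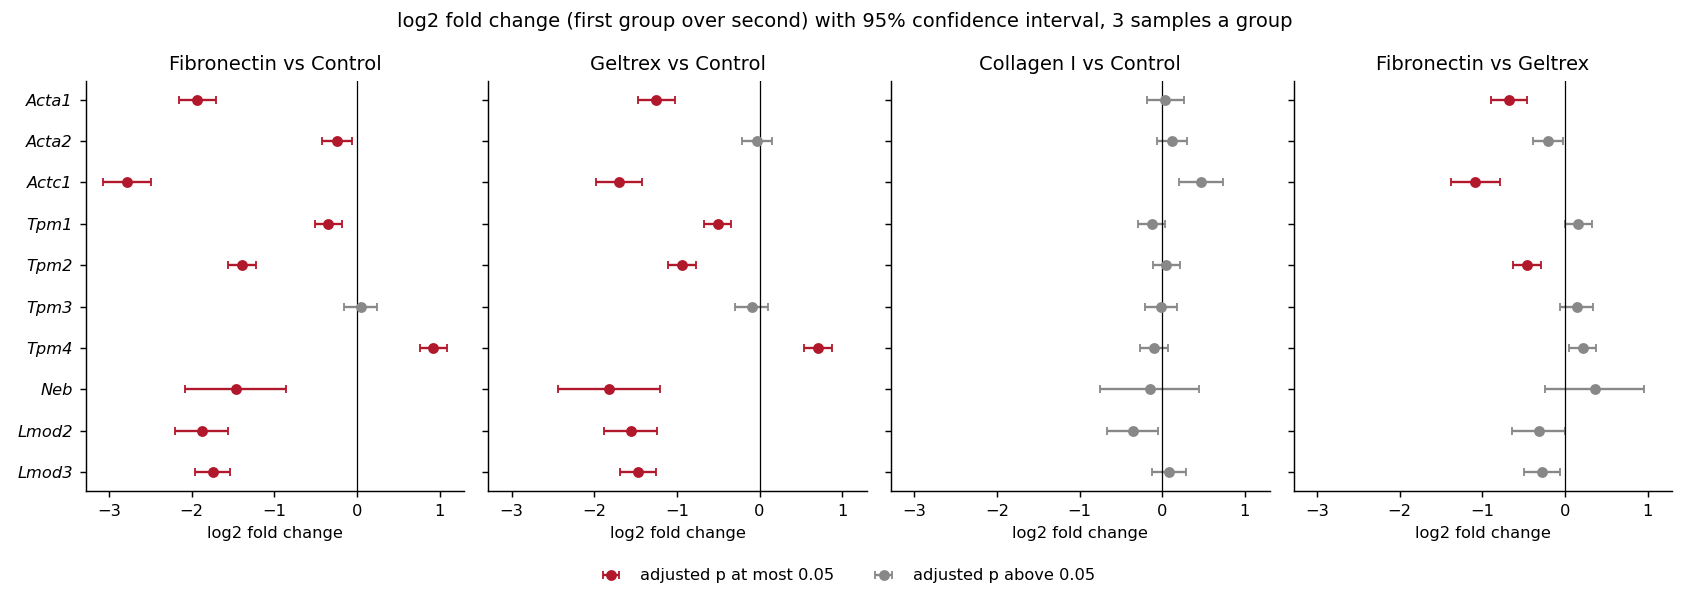
log2 fold change (x axes) of each gene in 4 comparisons, first group over second, with the 95% confidence interval from 3 samples a group. Red marks an adjusted p of at most 0.05. *Actc1* lies farthest left on Fibronectin at -2.78, *Tpm4* lies right of 0 for Fibronectin and for Geltrex against the Control, and all 10 genes are gray for Collagen I against the Control.

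Other genes of the thin filament were described by lists of other actins (*Actb*, *Actg1*, and *Actg2*), capping and length factors, and troponins. These were 33 genes in all, of which 32 were tested. *Tnnc2* did not pass the filter. On Fibronectin 7 of the 32 were higher and 15 lower than in the Control, and on Geltrex 8 were higher and 14 lower. Over all genes tested these shares were 17.1% higher and 14.7% lower on Fibronectin, and 16.4% higher and 16.6% lower on Geltrex. The counts of higher genes lay closer to these shares than the counts of lower genes did, and nothing is read from them. Against the Control, Collagen I had 0 calls in edgeR's test among the 32, beside 0.200% of all genes called higher and 0.917% lower. DESeq2 called 2 of the 32, and 485 genes in all. At an unadjusted p under 0.05 there were 5 of the 32, and the share over all genes at that threshold was not computed.

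Troponins are the calcium switch of the thin filament. On both Fibronectin and Geltrex, 6 of the 7 tested genes were lower than in the Control, and the cardiac *Tnni3*, under 1 CPM, was not called. Of all genes tested, 14.7% were lower on Fibronectin and 16.6% on Geltrex. *Tnnt1*, the slow-muscle troponin T, was -2.46 on Fibronectin (adjusted p = 1.30e-09) and -2.33 on Geltrex (adjusted p = 1.92e-09). *Tnnt3*, the fast-muscle troponin T, was -2.15 (adjusted p = 1.30e-09) and -1.70 (adjusted p = 3.54e-09). *Tnni2*, fast-muscle troponin I, was -2.07 on Fibronectin, and *Tnnc1*, slow and cardiac troponin C, was -1.66 on Geltrex. The median log2 fold change of the tested troponins was -1.98 on Fibronectin and -1.59 on Geltrex.

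Capping and length factors went both ways. On Fibronectin 5 of 22 were higher and 9 lower, and on Geltrex 5 were higher and 8 lower. The shares over all genes tested were 17.1% higher and 14.7% lower on Fibronectin, and 16.4% and 16.6% on Geltrex. The counts of higher genes lay closer to these shares, and nothing is read from them. *Cap2*, a cyclase-associated protein that remodels actin in muscle, was -2.28 on Fibronectin (adjusted p = 3.70e-08) and -2.22 on Geltrex (adjusted p = 3.34e-08). *Klhl41*, a muscle protein that stabilizes nebulin, was -2.28 (adjusted p = 1.39e-07) and -1.80 (adjusted p = 9.53e-07). *Tmod1*, the tropomodulin that caps pointed ends in striated muscle, was -1.97 on Fibronectin (adjusted p = 4.38e-08), and *Xirp2*, an actin-binding repeat protein, was -2.13 on Geltrex (adjusted p = 0.000805). *Tmod3*, the widely expressed tropomodulin, chosen after its values were seen, was 0.63 on Fibronectin (adjusted p = 0.000149) and 0.28 on Geltrex (adjusted p = 0.0375).

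Of the regulators of SRF, the factor that binds the CArG box, *Srf* and *Fhl2* differed between Fibronectin and Geltrex. The mean of *Srf* itself was 23.8 CPM in the Control, 25.5 CPM with Fibronectin, and 52.9 CPM with Geltrex, and it was called higher on Geltrex than in the Control (1.15, adjusted p = 5.28e-07) and than on Fibronectin (adjusted p = 2.99e-06), while the Fibronectin difference from the Control was 0.10 (adjusted p = 0.491). *Fhl2*, a cofactor and target of SRF, was 0.55 on Fibronectin (adjusted p = 0.00149) and 1.19 on Geltrex (adjusted p = 7.63e-07), with a difference of -0.64 between Fibronectin and Geltrex (adjusted p = 0.000609). *Mrtfb*, a coactivator of SRF, was 0.54 and 0.52 (adjusted p = 0.00243 and 0.00252), and *Mrtfa*, its close relative, was not called in either (0.06 and 0.10, adjusted p = 0.554 and 0.338). *Abra*, a muscle protein that promotes the activity of the coactivators, was lower in both, at -1.42 (adjusted p = 1.06e-05) and -1.30 (adjusted p = 1.93e-05). Of the 5 tested genes, 2 were higher and 1 lower on Fibronectin, and 3 were higher and 1 lower on Geltrex. Among all genes tested, 17.1% were higher and 14.7% lower on Fibronectin, and 16.4% and 16.6% on Geltrex.

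Genes of the smooth muscle list were 4 higher and 1 lower of 7 tested on Fibronectin, and 5 higher and 0 lower on Geltrex. For all genes tested the shares were 17.1% higher and 14.7% lower on Fibronectin, and 16.4% and 16.6% on Geltrex. *Myl9*, a regulatory myosin light chain, was 0.87 on Fibronectin and 0.78 on Geltrex, *Cnn2*, a widely expressed calponin, was 0.63 and 0.73, and *Lmod1*, the smooth muscle leiomodin, was 1.25 on Geltrex at a mean of 4.69 CPM there. Fibroblast markers were 0 higher and 3 lower of 5 tested in both comparisons, and *Thy1* had no count in any sample. The 6 fibroblast genes summed to between 5250 and 6646 CPM over the 12 samples.

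**Figure D5:**
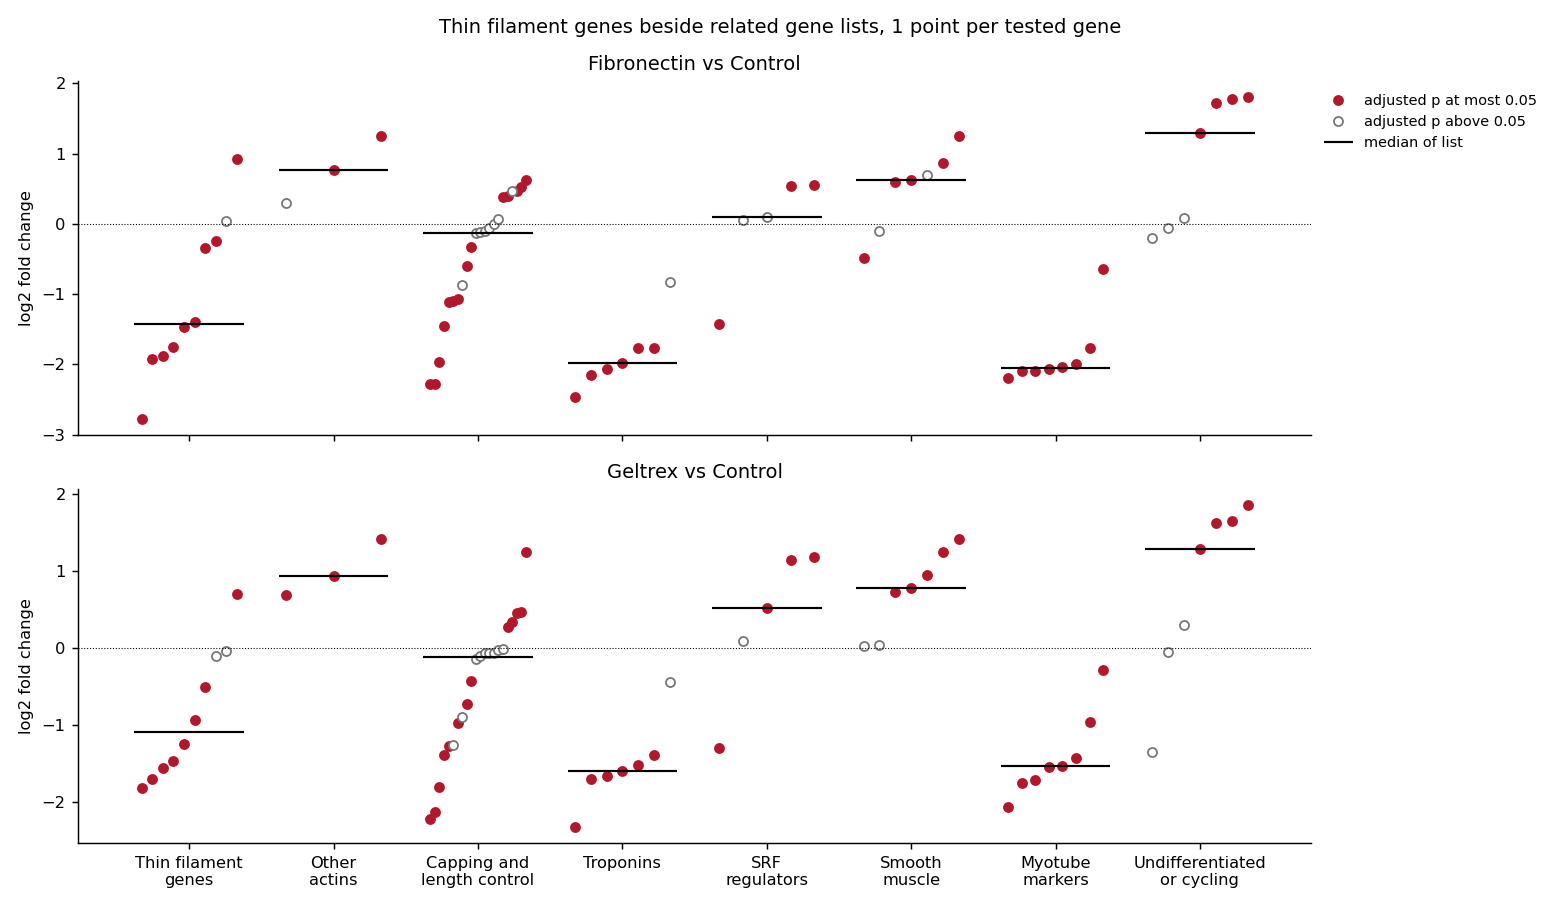
log2 fold change (y axes) of each tested gene of the thin filament set and 7 related lists on Fibronectin (top) and Geltrex (bottom) relative to the Control. Filled points have an adjusted p of at most 0.05, and lines mark the list medians. Troponins and myotube markers lie below 0, and the other actins lie above 0. The 4 cell cycle genes of the undifferentiated or cycling list also lie above 0, and capping and length factors are spread on both sides.

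The genes whose pattern over the 12 samples was nearest to each member were found by the root mean square difference of centered log2 CPM among 12319 genes with a mean of at least 1 CPM. Nearest to *Acta1* were *Myl6b* (0.08), *Tmem38a* (0.09), and *Prkag3* (0.10), against an SD of 0.89 for *Acta1* itself. Nearest to *Actc1* were *Smpx* (0.31), *Fabp3* (0.33), and *Art5* (0.33), with an SD of 1.37 for *Actc1*. *Tpm2* was nearest to *Cmbl* (0.12), *Itgb1bp2* (0.12), and *Mylpf* (0.12), and *Tpm4* was nearest to *Coro1c* (0.07), *Tyms* (0.10), and *Hacd4* (0.10). *Lmod2* was nearest to *Casq2* (0.09), *Tmem182* (0.12), and *Myom1* (0.13), and *Lmod3* to *Tnnt2* (0.11), *Pygm* (0.13), and *Myl4* (0.13). For *Neb* the nearest genes were *Slco5a1* (0.22), *Arhgef6* (0.23), and *Gm37565* (0.24). *Acta2*, *Tpm1*, and *Tpm3* varied least of the 10 genes over the samples, with SDs of 0.15, 0.21, and 0.11. Their nearest genes were *Ctdnep1* (0.06), *Brd7* (0.06), and *Rtf1* (0.05), and small distances say less for genes that vary little.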

How the data were processed

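RNA-seq of 12 samples in 4 groups was used. The authors deposited raw read counts per gene, without normalization, which they made with Trimmomatic for trimming, HISAT2 for alignment, and featureCounts for counting. The genome build, annotation release, and strand setting are not given in the sources used here. All 55536 gene identifiers occur in GENCODE M21 (GRCm38), which gave names, positions, and exon lengths. Only sense and antisense overlap of exons was checked, and *Tpm4* and *Neb* overlap antisense genes over 6.08% and 0.169% of their exon bases, with 86 and 3 counts on those genes.

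Testing used the edgeR package (version 4.0.16, R 4.3.3). Genes passed filterByExpr (minimum count 10, minimum total 15), normalization was by TMM, and a single quasi-likelihood fit over the 4 groups with 8 residual degrees of freedom gave 6 comparisons, with Benjamini-Hochberg adjustment over 14499 genes. The SE is the log2 fold change divided by the root of F. Ratios used counts per kb with 0.5 counts added, tested by exact permutation, adjusted over 7 ratios. The total count per sample was 22520404 to 27351766, and low genes such as *Tagln* had at most 28 counts. The part of depth in their precision was not tested.

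The members and lists were chosen with earlier results of these data known. Named genes were all members, *Actb*, *Actg1*, *Srf*, *Mrtfa*, and *Mrtfb*, and, in each related list, the 3 largest called changes on Fibronectin and on Geltrex among genes with a mean of at least 1 CPM. The fit was checked on simulated counts. Alternatives were DESeq2 1.42.0, RLE normalization, library totals, scaling without the members, no filter, at least 10 counts in every sample, only the 2 groups compared, the replicate block, each sample left out, the Geltrex samples summed, and, for ratios, 10 counts added. Pool shares without length and the deviations of long genes were added after seeing the data.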

Additional observations from a re-analysis of the deposited data

How the results depend on the processing

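No call of a member changed direction under any alternative, and no scaling moved the median of all genes by over 0.1 (log2). Between Collagen I and the Control, DESeq2 called 1 member, 2 partner genes of the thin filament, and 485 genes in all, against 0, 0, and 162 in the edgeR fit. Without a filter these were 2, 2, and 581, with only the 2 groups compared 39 genes were called, and with the Geltrex samples summed into 1 it was 45 genes. Leaving out single samples gave 0 to 1 members, 0 to 1 partners, and 44 to 233 genes. Between Fibronectin and Geltrex, 6 members were called without a filter and 6 with only the 2 groups compared, and leaving out single samples gave 3 to 7 members, 5 to 14 partners, and 1717 to 3436 genes, against 3, 10, and 2805. With the Geltrex samples summed, 2 partners and 703 genes were called there, 2079 genes were called between Geltrex and the Control, and 2130 between Collagen I and Geltrex, in a fit with fewer samples. The *Lmod2* to *Lmod3* ratio gave adjusted p-values of 0.00659 to 0.098 with single samples left out. The causes were not tested where none is given.

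The replicate numbers were not treated as pairs. The correlation of deviations between same-numbered samples was over 0.1 in every pair for Collagen I and Fibronectin among genes with a mean of at least 1 CPM (0.135 to 0.398), but not over all genes tested (lowest 0.0473), and not in the other 5 comparisons. In that comparison 6 of 6 samples correlated best with their own number. Among genes with a mean of at least 1 CPM, 5 of 6 did so between Geltrex and the Control, with correlations of at most 0.0831. Between Fibronectin and the Control 0 of 6 did, and the highest correlation there, 0.520, joined samples of different number. These counts are a hint from the data only. With the replicate block, 1 member and 1 partner were called between Collagen I and the Control, and 8 members between Fibronectin and the Control, where *Acta2* had an adjusted p of 0.0534. The block changed no other count of members.

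The lowest count of a member in any sample was 319, for *Actc1*, and the effect of depth on the results was not tested. Of the listed genes, *Tnnc2*, *Myocd*, *Cnn1*, *Myh11*, *Thy1*, *Nppa*, *Myl7*, and *Ryr2* had too few counts to test.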
